A study of Mus musculus with 45 samples.

Results

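The 35 genes described here are transcripts typical of macrophages, measured in islets of Langerhans, the hormone-secreting cell clusters of the pancreas. They were chosen by symbol from a list of macrophage genes, with earlier results of these data known. Counts of members beside the share of all genes are therefore descriptions. Among the 22904 genes of the deposited matrices 35 of 35 were found, in 36 rows because Itgam occurs under 2 identifiers. Islet RNA came from wild-type mice of the common laboratory strain C57BL/6J, the wild-derived strain CAST/EiJ and NZO/HlLtJ, an inbred strain that becomes obese and, mainly in males, diabetic. From 6 to 16 weeks of age, when tissue was taken, females and males were kept on control chow (10% fat, fiber) or on a diet rich in fat and sugar (44% fat, fiber). Strain, sex and diet made 12 groups. NZO/HlLtJ males had 3 libraries on each diet, CAST/EiJ males on 10% fat also had 3, and the other groups had 4.

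Macrophages are phagocytes that live in nearly every tissue, where they clear dead cells and debris, sense microbes and exchange signals with the cells around them. Their development and survival depend on the growth factors CSF1 and IL34 acting through the receptor CSF1R, and on the transcription factor PU.1, encoded by Spi1. In the pancreas, resident macrophages inside islets lie close to blood vessels and beta cells, and macrophages of the exocrine stroma form a separate population that more often carries the mannose receptor CD206. Macrophage numbers in islets are known to differ with obesity and diabetes in mice and humans.

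Library totals ran from 57.2 to 110 M counts, so that a level of 1 CPM (counts scaled to a common library total with TMM factors) rested on many counts. Endocrine hormone and beta cell transcripts summed to 66917 to 188440 CPM in the 45 libraries, and acinar enzyme transcripts from the exocrine pancreas summed to 456 to 630156 CPM. Of the macrophage genes, 35 of 35 passed the filter on low counts. In 5 libraries transcripts typical of another strain were present at 1.52% to 10.2% of that strain's level, 3 of them from CAST/EiJ females on 44% fat, 1 from NZO/HlLtJ males on 44% fat (replicate 3) and 1 from C57BL/6J females on 44% fat. No other library exceeded 0.673%. Replicate 3 of the CAST/EiJ males on 10% fat stood apart from its group. It held Siglec1 at 60.9 CPM, against 0.573 and 0.384 CPM in the other 2, Lyz2 at 210 against 11.5 and 8.92 CPM, and Gpnmb at 6.78 against 0.700 and 0.927 CPM. B and plasma cell markers summed to 140 CPM in it, against 6.21 and 4.07 CPM, and T and NK cell markers to 20.7 against 1.11 and 1.23 CPM, and their part in its values was not tested. Whether the libraries are from different mice is not stated in the labels, and the p-values refer to the spread among libraries, which may be technical.

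PU.1 binds purine-rich sites with a GGAA core, and a promoter site is shown here for 3 members because the 35 genes are known as macrophage genes and PU.1 is the lineage factor among them. RefSeq promoter windows on GRCm38.p6, from 250 bases before to 50 bases after the start of a gene, were matched for 27 of the 35 members (31 windows). The motif GAGGAAGT, searched on both strands, occurred in 3 of these 31 windows (9.68%), against 3.2% of all 32851 windows. The shorter GAGGAA, which the longer motif contains, occurred in 19 of 31 windows (61.3%), against 28.3% of all windows. These shares are descriptions, and a match is not shown to be a binding site. The 3 windows with the longer motif follow, 5′ to 3′ on the strand of the gene, with the match in capitals. The capitals read ACTTCCTC in each, which is the motif on the opposite strand.
C1qc, chr4:136892865-136893164, minus strand: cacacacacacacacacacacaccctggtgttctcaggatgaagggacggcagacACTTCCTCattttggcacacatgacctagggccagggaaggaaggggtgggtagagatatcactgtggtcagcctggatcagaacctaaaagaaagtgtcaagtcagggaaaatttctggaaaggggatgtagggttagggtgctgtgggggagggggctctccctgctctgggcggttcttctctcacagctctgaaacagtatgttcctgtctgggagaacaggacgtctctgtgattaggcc
Cd53, chr3:106790100-106790399, minus strand: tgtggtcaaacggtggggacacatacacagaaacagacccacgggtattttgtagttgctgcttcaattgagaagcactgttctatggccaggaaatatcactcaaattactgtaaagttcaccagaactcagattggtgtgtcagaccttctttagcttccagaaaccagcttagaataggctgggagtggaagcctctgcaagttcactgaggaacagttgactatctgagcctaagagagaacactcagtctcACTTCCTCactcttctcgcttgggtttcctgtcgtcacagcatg
Ctss, chr3:95526536-95526835, plus strand: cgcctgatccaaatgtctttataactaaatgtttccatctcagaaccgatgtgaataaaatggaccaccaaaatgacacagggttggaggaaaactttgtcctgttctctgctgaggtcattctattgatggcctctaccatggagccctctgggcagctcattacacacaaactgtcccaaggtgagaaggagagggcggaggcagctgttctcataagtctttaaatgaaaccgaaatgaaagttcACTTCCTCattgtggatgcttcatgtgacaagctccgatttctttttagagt
Relative to the start, counted without a position 0, the match begins at position -195 in C1qc, 7 in Cd53 and -2 in Ctss.

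Levels of different genes were compared per kilobase of exon. In C57BL/6J on 10% fat, C1qa had the highest median of the members, 30.9 CPM per kb, followed by Ctss at 19.4, Lyz2 at 9.33 and C1qb at 8.21 CPM per kb. Siglec1 and Gpnmb were lowest, with medians of 0.0540 and 0.0698 CPM per kb. In NZO/HlLtJ males on 44% fat Lyz2 was highest, at 135 CPM per kb, ahead of C1qa at 116, Ctss at 99.1 and C1qb at 52.5 CPM per kb. The summed level of the 35 genes was 242 ± 28.0 CPM (SD, n = 4) in C57BL/6J females and 209 ± 31.5 CPM (SD, n = 4) in C57BL/6J males on 10% fat. NZO/HlLtJ females went from 182 ± 8.68 CPM (SD, n = 4) on 10% fat to 473 ± 102 CPM (SD, n = 4) on 44% fat. In NZO/HlLtJ males the sums were 429 ± 202 CPM (SD, n = 3) and 1623 ± 516 CPM (SD, n = 3). Males of NZO/HlLtJ on 44% fat thus had the 3 highest sums of all 45 libraries, and the 2 groups of NZO/HlLtJ males did not overlap.

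**Figure D1:**
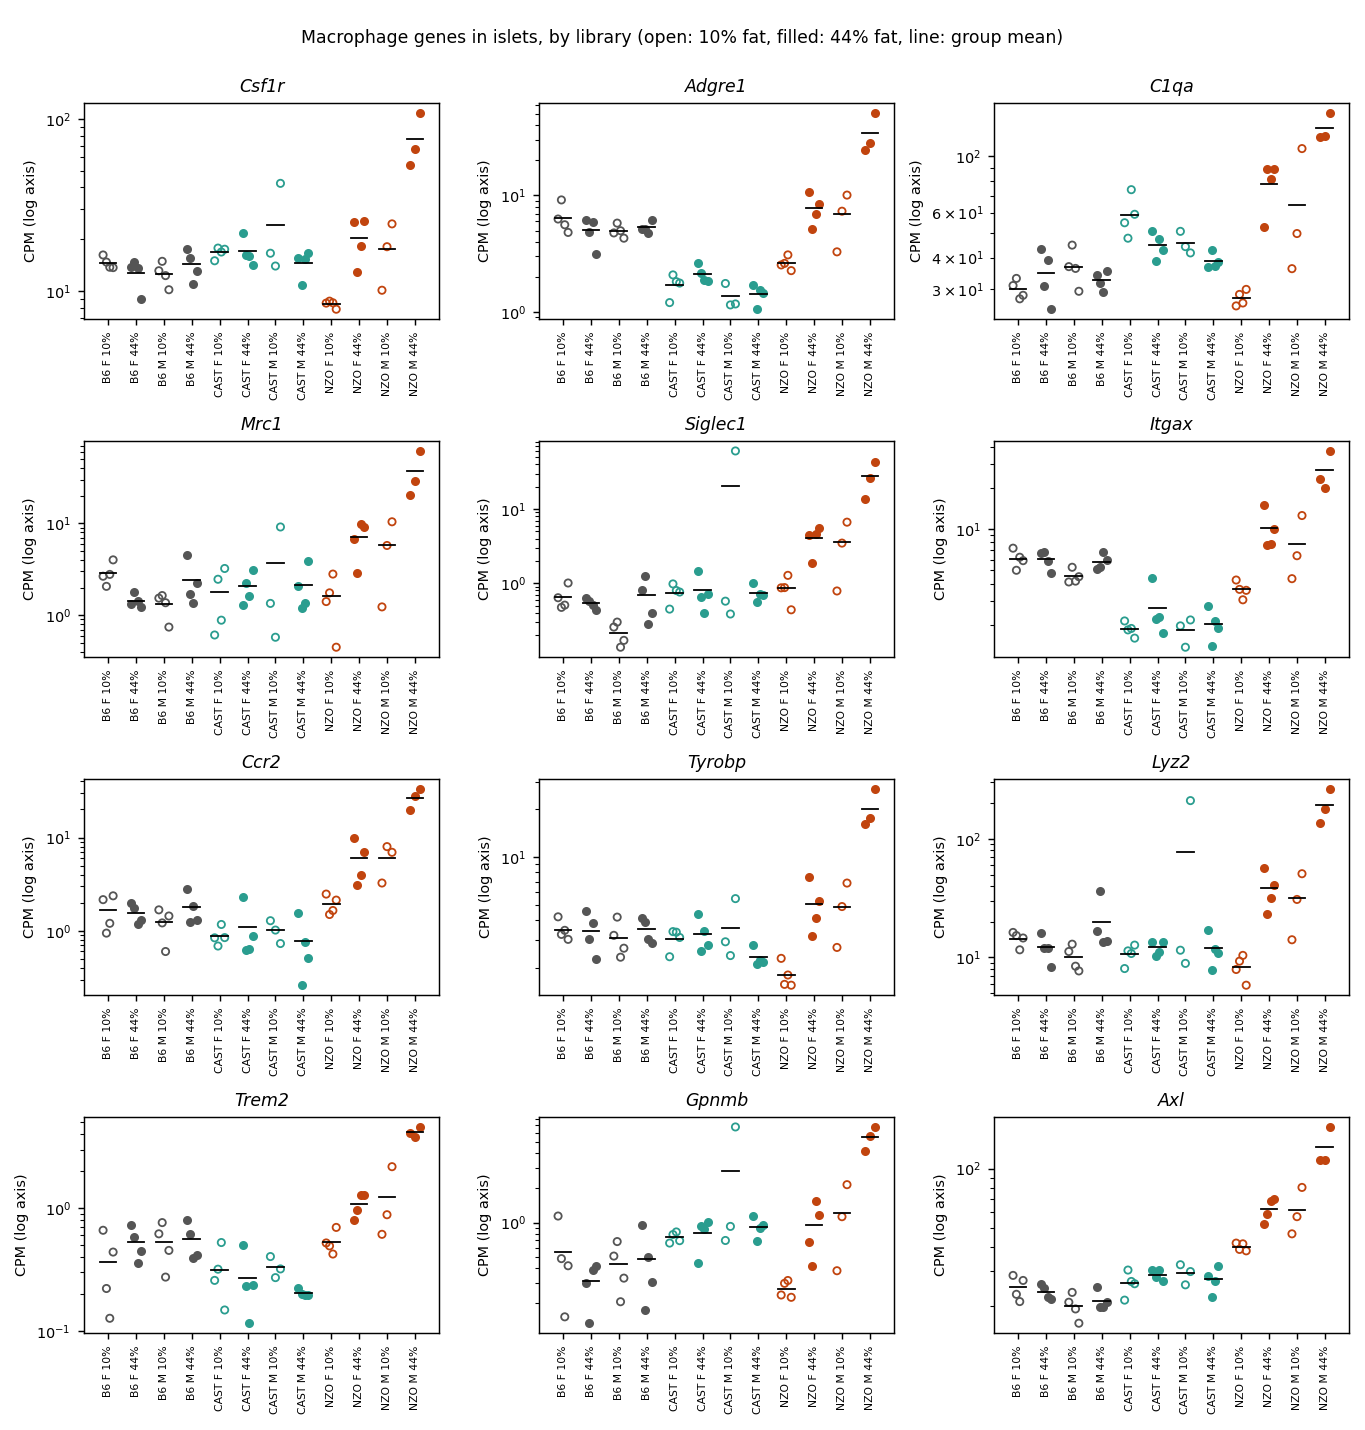
Level of 12 macrophage genes in every library, in CPM on a log axis, by strain, sex and diet; each point is 1 library. For Csf1r, NZO/HlLtJ males on 44% fat lie between 54.0 and 108 CPM, above all other libraries.

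The first comparison asked how the 44% fat diet changed these transcripts in NZO/HlLtJ. As a mean over both sexes, 35 of 35 members rose in edgeR's quasi-likelihood test, against 17.3% of all 20306 genes tested. Log2 fold changes ran from 0.76 to 2.81 with a median of 1.86, a 3.62-fold rise, beside a median of -0.02 over all genes. The largest rises were those of Clec10a, a galactose-binding lectin, at 2.81 ± 0.64 (SE, adjusted p = 0.000797), the sialic acid receptor Siglec1 at 2.59 ± 0.62 (SE, adjusted p = 0.00154) and the mannose receptor Mrc1 at 2.41 ± 0.50 (SE, adjusted p = 0.000339). The smallest were those of the Fc receptor gamma chain Fcer1g at 0.76 ± 0.18 (SE, adjusted p = 0.0013) and of the clearance receptors Mertk at 0.85 ± 0.19 (SE, adjusted p = 0.000672) and Axl at 0.85 ± 0.11 (SE, adjusted p = 3.2e-07). In bulk islet RNA, more macrophages and more of these transcripts per macrophage cannot be told apart. Sample codes of unexplained meaning begin with 76, 80 or 89 and are partly confounded with diet within each sex. With the code series as a factor 35 members were called. Within series 76 alone (3 libraries on each diet) 35 of 35 log2 fold changes were above 0, with a median of 2.15, and 3 members (Cd68, Clec7a and Fcgr3) passed the threshold. The other series held, in each sex of NZO/HlLtJ, 1 diet only.

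**Figure D2:**
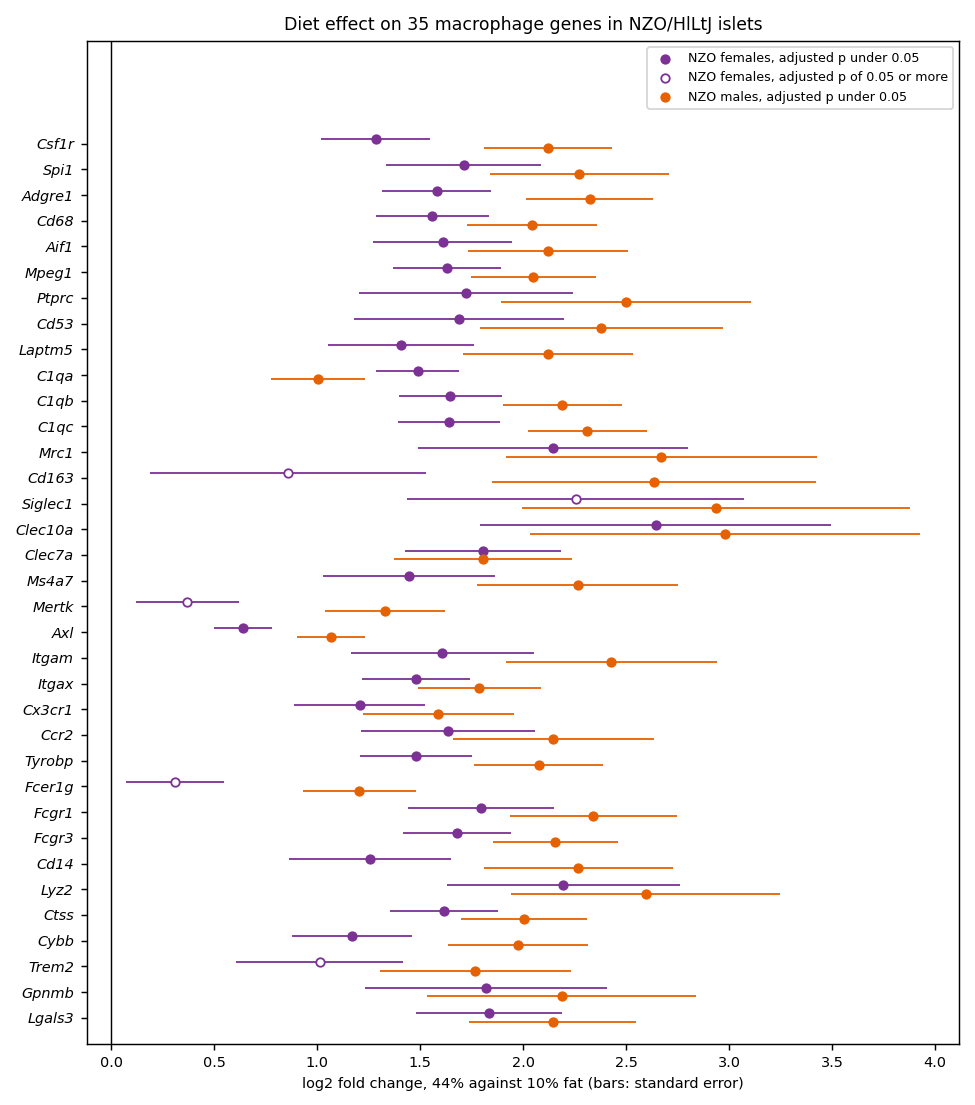
Log2 fold change of 44% against 10% fat for the 35 genes in NZO/HlLtJ females and males, by role group; bars are SE. Every point lies above 0, with medians of 1.61 in females and 2.15 in males.

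Lineage factors and general macrophage proteins rose in 6 of 6 cases (median log2 fold change 1.85). Csf1r, the receptor for CSF1 and IL34, was at 8.49, 8.72, 8.53 and 7.83 CPM in NZO/HlLtJ females on 10% fat and 25.2, 12.8, 18.3 and 25.4 CPM on 44% fat. Its levels were 10.1, 18.1 and 24.5 CPM in the males on 10% fat and 54.0, 66.7 and 108 CPM on 44% fat. Libraries of the 2 diets did not overlap in females or in males, and the fitted change was 1.70 ± 0.20 (SE, adjusted p = 2.07e-07). Adgre1 encodes F4/80, the classical surface marker of mouse macrophages, and was at 2.54, 2.62, 3.10 and 2.27 CPM in NZO/HlLtJ females on 10% fat and 10.8, 5.20, 7.001 and 8.43 CPM on 44% fat. Adgre1 stood at 3.29, 7.33 and 10.1 CPM in the males on 10% fat and 24.4, 28.0 and 51.0 CPM on 44% fat, again without overlap in either sex, with a change of 1.95 ± 0.20 (SE, adjusted p = 2.56e-08). Spi1, which encodes PU.1, rose by 1.99 ± 0.29 on the log2 scale. The lysosomal glycoprotein Cd68, the actin-binding protein Aif1 and the pore-forming protein Mpeg1 rose by 1.80, 1.86 and 1.84. General leukocyte proteins, which lymphocytes also make, rose in 3 of 3 cases, with the phosphatase Ptprc (CD45) at 2.11 ± 0.40, the tetraspanin Cd53 at 2.03 ± 0.39 and the lysosomal membrane protein Laptm5 at 1.76 ± 0.27 (log2 fold change ± SE).

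The 3 chains of complement C1q, which together form the recognition molecule of the classical complement pathway, rose in 3 of 3 cases (median log2 fold change 1.92). C1qb was at 5.01, 4.51, 5.51 and 5.51 CPM in NZO/HlLtJ females on 10% fat and 22.7, 9.60, 13.6 and 18.3 CPM on 44% fat. In the males C1qb was at 7.42, 15.2 and 23.8 CPM on 10% fat and 52.9, 57.1 and 102 CPM on 44% fat. C1qb and C1qc changed by nearly equal amounts, 1.92 ± 0.19 (SE, adjusted p = 2.04e-08) and 1.98 ± 0.19 (SE, adjusted p = 1.14e-08). C1qa changed by 1.25 ± 0.15 (SE, adjusted p = 2.75e-07) and also had a higher level per kb than C1qb (26.5 against 4.84 CPM per kb in NZO/HlLtJ females on 10% fat). Its values were 25.8, 28.7, 26.5 and 29.99 CPM in NZO/HlLtJ females on 10% fat and 52.6, 88.8, 81.2 and 88.8 CPM on 44% fat, and 36.2, 49.7 and 107 CPM in the males on 10% fat and 119, 120.2 and 148 CPM on 44% fat. The ratio of C1qa to C1qc counts had a median of 5.67 in NZO/HlLtJ females and 4.88 in the males on 10% fat, 5.38 in the females and 2.24 in the males on 44% fat. The medians were 3.21 and 4.57 in C57BL/6J females and males and 7.05 and 6.02 in CAST/EiJ females and males on 10% fat. The ratio of C1qb to C1qc had group medians between 0.831 and 1.10, a narrower range than that of C1qa to C1qc. It was lower in CAST/EiJ (0.831 to 0.881) than in C57BL/6J (1.08 to 1.10) and NZO/HlLtJ (0.985 to 1.08).

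Scavenger, lectin and clearance receptors rose in 8 of 8 cases as a mean over the sexes (median log2 fold change 1.83), with the widest spread of any role group. Mrc1, the mannose receptor CD206, was at 1.41, 1.75, 2.81 and 0.449 CPM in NZO/HlLtJ females on 10% fat and 6.82, 2.87, 9.74 and 9.06 CPM on 44% fat. Its male values were 1.23, 5.75 and 10.4 CPM on 10% fat and 20.3, 28.7 and 61.5 CPM on 44% fat. Siglec1 (CD169) was at 0.867, 0.873, 1.28 and 0.438 CPM in NZO/HlLtJ females on 10% fat and 4.48, 1.89, 4.58 and 5.56 CPM on 44% fat. In the males it stood at 0.786, 3.48 and 6.67 CPM on 10% fat and 13.6, 26.3 and 43.5 CPM on 44% fat. For both genes the 2 diets did not overlap within a sex. Clec10a was at 0.173, 0.214, 0.275 and 0.0674 CPM in NZO/HlLtJ females on 10% fat and 1.81, 0.176, 1.35 and 1.26 CPM on 44% fat, with 1 library on 44% fat inside the range of the 10% libraries. The male Clec10a values, 0.197, 1.30 and 1.70 CPM on 10% fat and 4.74, 8.39 and 12.04 CPM on 44% fat, did not overlap. Cd163, the receptor for haptoglobin-haemoglobin complexes, was at 0.322, 0.381, 1.28 and 0.292 CPM in NZO/HlLtJ females on 10% fat and 0.635, 0.320, 1.46 and 1.71 CPM on 44% fat. The female values overlapped, whereas the males were at 0.339, 1.37 and 2.02 CPM on 10% fat and 3.58, 7.70 and 11.9 CPM on 44% fat, without overlap.

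Axl and Mertk are receptor kinases with which phagocytes recognise dying cells. Axl was at 41.7, 38.8, 41.4 and 38.1 CPM in NZO/HlLtJ females on 10% fat and 52.4, 58.4, 68.3 and 70.0 CPM on 44% fat. The male libraries held 46.5, 56.9 and 80.1 CPM on 10% fat and 110.3, 111 and 163 CPM on 44% fat, and the diets did not overlap in either sex. Mertk was at 2.76, 3.56, 4.06 and 2.46 CPM in NZO/HlLtJ females on 10% fat and 4.27, 2.83, 4.55 and 4.92 CPM on 44% fat, with overlapping ranges. In males the Mertk values were 4.29, 3.51 and 6.09 CPM on 10% fat and 6.51, 10.7 and 17.7 CPM on 44% fat, without overlap. Clec7a (Dectin-1, a receptor for fungal beta-glucan) rose by 1.80 ± 0.29 on the log2 scale. Ms4a7, a membrane protein used as a macrophage marker, rose by 1.85 ± 0.32. Axl and Mertk are also expressed by cells other than macrophages.

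Integrins and chemokine receptors rose in 4 of 4 cases (median log2 fold change 1.76). Itgax encodes CD11c, an integrin chain that islet-resident macrophages and dendritic cells carry, and was at 4.26, 3.64, 3.06 and 3.58 CPM in NZO/HlLtJ females on 10% fat and 15.03, 7.63, 7.75 and 10.04 CPM on 44% fat. It stood at 4.36, 6.40 and 12.6 CPM in the males on 10% fat and 23.2, 20.1 and 37.2 CPM on 44% fat. Cx3cr1, the fractalkine receptor of resident macrophages and some monocytes, was at 4.13, 4.18, 3.18 and 4.60 CPM in NZO/HlLtJ females on 10% fat and 13.1, 6.27, 7.97 and 9.77 CPM on 44% fat. For Cx3cr1 the levels were 3.98, 9.93 and 12.2 CPM in the males on 10% fat and 25.6, 22.1 and 30.6 CPM on 44% fat. Ccr2, the receptor for CCL2 through which monocytes leave the marrow and enter tissue, was at 2.48, 1.495, 1.65 and 2.13 CPM in NZO/HlLtJ females on 10% fat and 9.84, 3.12, 4.01 and 7.05 CPM on 44% fat. In the male libraries it was at 3.25, 7.99 and 6.94 CPM on 10% fat and 19.6, 27.7 and 33.2 CPM on 44% fat. For all 3 genes the 2 diets did not overlap in either sex. The fitted changes were 1.63 ± 0.20 (SE, adjusted p = 2.07e-07) for Itgax, 1.40 ± 0.24 (SE, adjusted p = 3.4e-05) for Cx3cr1 and 1.89 ± 0.32 (SE, adjusted p = 2.74e-05) for Ccr2. Itgam, which encodes CD11b, rose by 2.02 ± 0.34 on the log2 scale. The second Itgam row of the matrix overlaps the first in the genome and reached at most 0.784 CPM, so that reads may be split between them.

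ITAM adaptors and Fc receptors, which pass activating signals from surface receptors to the kinase SYK, rose in 4 of 4 cases (median log2 fold change 1.85). Tyrobp, the adaptor DAP12 that TREM2 needs, was at 2.29, 1.57, 1.80 and 1.55 CPM in NZO/HlLtJ females on 10% fat and 7.49, 3.19, 4.14 and 5.26 CPM on 44% fat. The levels of Tyrobp were 2.69, 4.87 and 6.85 CPM in the males on 10% fat and 16.1, 17.6 and 27.0 CPM on 44% fat. The high-affinity IgG receptor Fcgr1 was at 0.619, 0.566, 0.590 and 0.629 CPM in NZO/HlLtJ females on 10% fat and 3.13, 1.10, 1.14 and 2.96 CPM on 44% fat. In the males Fcgr1 was at 1.29, 2.02 and 2.93 CPM on 10% fat and 7.67, 10.6 and 13.3 CPM on 44% fat. Neither gene overlapped between diets in either sex, and the changes were 1.78 ± 0.21 (SE, adjusted p = 1.18e-07) and 2.07 ± 0.27 (SE, adjusted p = 5.38e-07). Fcgr3, the low-affinity IgG receptor III, rose by 1.92 ± 0.20, and its reads could be shared with related Fc receptor genes. Fcer1g, the gamma chain shared by several Fc receptors, was at 5.57, 4.42, 5.80 and 4.51 CPM in NZO/HlLtJ females on 10% fat and 7.03, 2.80, 7.31 and 7.97 CPM on 44% fat, with overlapping ranges. Its male values of 4.35, 8.13 and 7.11 CPM on 10% fat and 11.8, 12.8 and 20.4 CPM on 44% fat did not overlap.

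Pattern receptor and effector genes rose in 4 of 4 cases (median log2 fold change 1.79). Lyz2, the lysozyme of myeloid cells, was at 7.92, 9.31, 10.4 and 5.84 CPM in NZO/HlLtJ females on 10% fat and 57.2, 23.2, 31.6 and 41.2 CPM on 44% fat. Lysozyme transcripts in the males were at 14.1, 30.9 and 50.9 CPM on 10% fat and 137, 177 and 264 CPM on 44% fat, so that the lowest male library on 44% fat was above every other NZO/HlLtJ library. Cybb, the membrane subunit of the phagocyte NADPH oxidase, was at 8.84, 7.53, 7.58 and 6.80 CPM in NZO/HlLtJ females on 10% fat and 27.4, 11.4, 11.6 and 18.7 CPM on 44% fat. In males Cybb was at 10.2, 18.3 and 21.9 CPM on 10% fat and 48.0, 58.6 and 91.4 CPM on 44% fat. The changes were 2.39 ± 0.43 (SE, adjusted p = 7.24e-05) for Lyz2 and 1.57 ± 0.22 (SE, adjusted p = 2.3e-06) for Cybb, with no overlap between diets within a sex. The lysosomal protease Ctss rose by 1.81 ± 0.20 and the lipopolysaccharide co-receptor Cd14 by 1.76 ± 0.30 on the log2 scale.

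Genes of lipid-associated macrophages, a state described in obese adipose tissue, rose in 3 of 3 cases (median log2 fold change 1.99). Trem2, a lipid-binding receptor that signals through TYROBP, was at 0.520, 0.492, 0.422 and 0.696 CPM in NZO/HlLtJ females on 10% fat and 0.794, 0.960, 1.27 and 1.27 CPM on 44% fat. The male libraries held 0.612, 0.883 and 2.17 CPM on 10% fat and 4.10, 3.80 and 4.58 CPM on 44% fat. Gpnmb, a glycoprotein of lysosome-rich cells, was at 0.235, 0.297, 0.314 and 0.225 CPM in NZO/HlLtJ females on 10% fat and 0.681, 0.416, 1.54 and 1.16 CPM on 44% fat. Gpnmb in the males was at 0.382, 1.13 and 2.14 CPM on 10% fat and 4.16, 5.64 and 6.77 CPM on 44% fat. Lgals3, the secreted lectin galectin-3, was at 1.16, 1.08, 1.26 and 0.842 CPM in NZO/HlLtJ females on 10% fat and 4.13, 2.42, 4.84 and 4.09 CPM on 44% fat. Its levels in the males were 1.43, 2.54 and 6.24 CPM on 10% fat and 9.77, 14.3 and 21.0 CPM on 44% fat. Diets did not overlap within a sex for any of the 3. Trem2 rose by 1.39 ± 0.31, Gpnmb by 2.00 ± 0.44 and Lgals3 by 1.99 ± 0.27 on the log2 scale, and Trem2 and Gpnmb had the lowest levels per kb of all members in the males on 44% fat, at 0.83 and 0.865 CPM per kb.

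Within females alone 30 of 35 members rose and none fell, against 8.33% of all genes called higher, with a median log2 fold change of 1.61. The 5 members not called were Cd163 at 0.86 ± 0.67 (SE, adjusted p = 0.413), Mertk at 0.37 ± 0.25 (SE, adjusted p = 0.334), Trem2 at 1.01 ± 0.41 (SE, adjusted p = 0.0829), Siglec1 at 2.25 ± 0.82 (SE, adjusted p = 0.0567) and Fcer1g at 0.31 ± 0.24 (SE, adjusted p = 0.403). Within males 35 of 35 rose, against 14.9% of all genes, with a median of 2.15. Among the called members the largest changes in females were those of Clec10a at 2.64, Lyz2 at 2.19 and Mrc1 at 2.14, and in males those of Clec10a at 2.98, Siglec1 at 2.93 and Mrc1 at 2.67. The smallest called changes were those of Axl at 0.64, Cybb at 1.17 and Cx3cr1 at 1.21 in females and of C1qa at 1.00, Axl at 1.07 and Fcer1g at 1.20 in males (log2 fold changes). All libraries on 44% fat exceeded all on 10% fat for 29 of 35 members in females, against 8.79% of all genes, and for 35 of 35 in males, against 20%. Female ranges overlapped for Cd53, Cd163, Clec10a, Mertk, Fcer1g and Cd14. The difference of the diet effect between the sexes was above 0 for 34 of 35 members, with a median of 0.55 on the log2 scale, but 0 members passed in edgeR, 3 had an unadjusted p under 0.05, and DESeq2 and limma-trend also called 0. Limma on the deposited log2 values called 6 (Adgre1, Cd163, Fcgr1, Trem2, Ms4a7 and Fcer1g). The background of calls in this comparison was 9.26% of all genes. Library totals alone in place of TMM left 17 members called in females.

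In the other strains edgeR called no member for the same diet. In C57BL/6J 0 of 35 were called as a mean over the sexes, against 0.0246% of all genes, and 0 had an unadjusted p under 0.05. In C57BL/6J females 0 were called (0% of all genes, 2 members with an unadjusted p under 0.05) and in males 0 (0.00492% of all genes, 3 such members). DESeq2, limma-trend and limma on the deposited values also called 0 in these 3 comparisons. Csf1r ranged over 10.2 to 16.2 CPM on 10% fat and 8.96 to 17.5 CPM on 44% fat, and Adgre1 over 4.30 to 9.16 and 3.17 to 6.21 CPM, with overlap in both cases. The median log2 fold change in C57BL/6J was 0.07 as a mean over the sexes. It was -0.11 in females, with 6 of 35 members above 0, and 0.29 in males, with 34 of 35 above 0. In CAST/EiJ edgeR called 0 members as a mean over the sexes (0.0295% of all genes, 7 members with an unadjusted p under 0.05), 0 in females (0.231%, 1 member) and 0 in males (0%, 12 members). DESeq2 called Siglec1 lower as a mean over the sexes, Ms4a7 higher in females, and Siglec1 and Lyz2 lower in males, where limma-trend and limma on the deposited values called 0. Ms4a7 in CAST/EiJ females on 44% fat was at 0.305, 0.127, 0 and 0.168 CPM, and the 3 libraries above 0 are those with transcripts of another strain, whose part in the value was not tested. Siglec1 and Lyz2 were high in replicate 3 of the males on 10% fat. Without that library edgeR gave diet effects in the males of 0.64 ± 0.61 for Siglec1 and 0.22 ± 0.40 for Lyz2 (log2 ± SE). Without replicate 1 or without replicate 2 of that group edgeR called 2 members in the males.

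The difference of the diet effect between strains was tested itself. The rise in NZO/HlLtJ exceeded the effect in C57BL/6J for 32 of 35 members, against 8.87% of all genes, with a median difference of 1.70 on the log2 scale. Cd163 at 1.65 ± 0.71 (SE, adjusted p = 0.104), Trem2 at 1.09 ± 0.42 (SE, adjusted p = 0.0684) and Siglec1 at 1.91 ± 0.87 (SE, adjusted p = 0.128) did not pass. The largest called differences were those of Clec10a at 2.80 ± 0.87, Mrc1 at 2.46 ± 0.67 and Itgam at 2.38 ± 0.46, and the smallest those of Mertk at 0.76 ± 0.26, Fcer1g at 0.77 ± 0.25 and Axl at 0.85 ± 0.15. Against CAST/EiJ 33 of 35 members had a larger effect in NZO/HlLtJ, against 12.4% of all genes, with a median difference of 1.93. Cd163 at 0.99 ± 0.70 (SE, adjusted p = 0.319) and Ms4a7 at 0.49 ± 0.79 (SE, adjusted p = 0.706) did not pass. The largest called differences there were Siglec1 at 4.93 ± 0.87, Clec10a at 3.98 ± 1.08 and Lyz2 at 3.65 ± 0.59, and the smallest Fcer1g at 0.82 ± 0.25, Axl at 0.83 ± 0.15 and Mertk at 0.92 ± 0.26. Those 3 values rest in part on replicate 3 of the CAST/EiJ males on 10% fat. Without it they were 2.22 ± 0.51 for Siglec1, 0.86 ± 1.65 for Clec10a (adjusted p = 0.759) and 2.19 ± 0.35 for Lyz2, and 32 members passed. Both comparisons share the NZO/HlLtJ libraries. With library totals alone 23 members passed against C57BL/6J, and 26 passed without the 5 libraries that held transcripts of another strain.

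**Figure D3:**
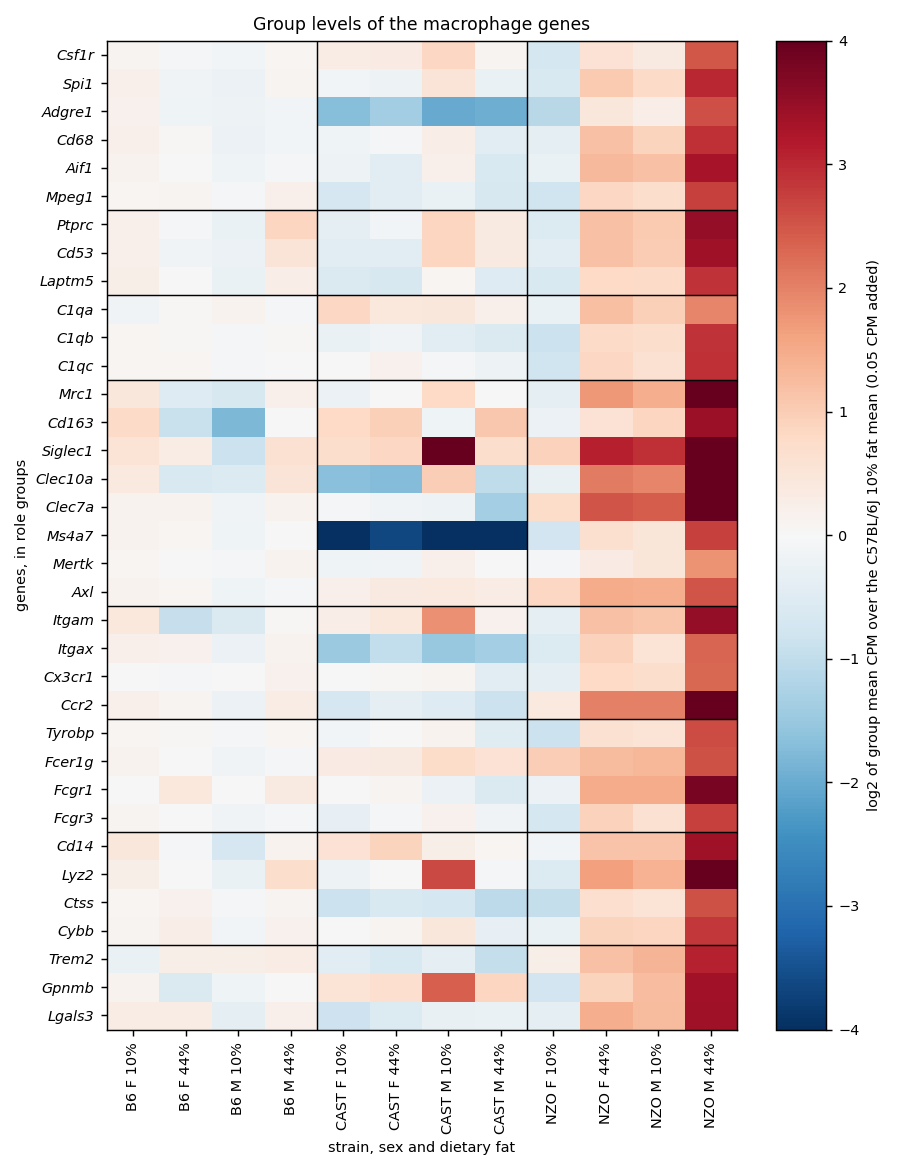
Mean level of each of the 35 genes in the 12 groups, as log2 of the ratio to the mean of C57BL/6J on 10% fat after adding 0.05 CPM; colours saturate at -4 and 4. The column of NZO/HlLtJ males on 44% fat is high throughout, and Ms4a7 is low in all 4 groups of CAST/EiJ.

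On the control diet NZO/HlLtJ had 0 of 35 members lower than C57BL/6J. The share of all genes called lower with TMM is not given here. NZO/HlLtJ had 7 of 35 members higher, against 22.2% of all genes, so that the share of members higher was near the background. These were Axl at 1.15 ± 0.10 (SE, adjusted p = 1.17e-11), Ccr2 at 1.25 ± 0.31 (SE, adjusted p = 0.00128), Clec7a at 1.61 ± 0.28 (SE, adjusted p = 1.38e-05), Fcer1g at 1.18 ± 0.18 (SE, adjusted p = 9.94e-07), Fcgr1 at 0.65 ± 0.26 (SE, adjusted p = 0.0383), Siglec1 at 2.22 ± 0.63 (SE, adjusted p = 0.00495) and Trem2 at 0.88 ± 0.30 (SE, adjusted p = 0.0174). Axl ranged over 38.1 to 80.1 CPM in NZO/HlLtJ and 16.3 to 28.6 CPM in C57BL/6J on 10% fat, without overlap. The median over all members was 0.30 on the log2 scale, and the general marker Csf1r was at 7.83 to 8.72 CPM in the NZO/HlLtJ females, below the 13.7 to 16.2 CPM of the C57BL/6J females. The count of higher members ran from 5 to 11 when single libraries were left out. Without replicate 3 of the NZO/HlLtJ males on 10% fat, Adgre1 was called lower. With RLE size factors (another scaling) in place of TMM, 4284 of 20306 genes were called lower. Differences between strains also depend on how reads with strain variants aligned to the GRCm38 build.

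CAST/EiJ differed from C57BL/6J on 10% fat in both directions, with 8 members higher (23.8% of all genes were) and 5 lower (23.2%). Ms4a7 was at 0, 0.0509, 0 and 0.106 CPM in the CAST/EiJ females and 0.0530, 0.0226 and 0 CPM in the males, and at 1.91 to 3.52 CPM in C57BL/6J. The fitted difference was -6.33 ± 0.47 (SE, adjusted p = 3.47e-14), and no CAST/EiJ library on either diet exceeded 0.305 CPM. Adgre1 was at 1.15 to 2.08 CPM against 4.30 to 9.16 CPM, a difference of -1.89 ± 0.20 (SE, adjusted p = 3.87e-10). Itgax was at 1.38 to 2.18 against 4.12 to 7.27 CPM, a difference of -1.50 ± 0.20 (SE, adjusted p = 4.58e-08). Neither gene overlapped between the strains. The protease Ctss and Mpeg1 were lower by smaller amounts, -0.78 ± 0.19 (SE, adjusted p = 0.000928) and -0.48 ± 0.19 (SE, adjusted p = 0.0373). The 8 higher members were Siglec1 at 3.37, Gpnmb at 1.55, Lyz2 at 1.25, Itgam at 1.18, C1qa at 0.64, Csf1r at 0.57, Fcer1g at 0.55 and Axl at 0.31 on the log2 scale. Without replicate 3 of the CAST/EiJ males 3 members remained higher (Axl, C1qa and Fcer1g) and 8 were lower (Adgre1, Clec10a, Ctss, Itgax, Laptm5, Lgals3, Mpeg1 and Ms4a7). Library totals alone gave 5 higher. Against CAST/EiJ, NZO/HlLtJ had 12 members higher (27.1% of all genes) and 2 lower (26.3%), namely Csf1r at -0.73 ± 0.20 (SE, adjusted p = 0.00231) and Gpnmb at -1.34 ± 0.43 (SE, adjusted p = 0.00919). The share of members higher was not far above the background there, and the share lower was below it. Without the same CAST/EiJ library 18 were higher and 0 lower.

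On 44% fat the NZO/HlLtJ islets stood above both other strains. Against C57BL/6J 35 of 35 members were higher, where 31.8% of all genes were, with a median log2 difference of 1.97 (3.92-fold). The largest were Siglec1 at 4.13 ± 0.63, Clec10a at 3.79 ± 0.63 and Clec7a at 3.27 ± 0.29, and the smallest Mertk at 0.99 ± 0.18, Ctss at 1.47 ± 0.19 and Itgax at 1.48 ± 0.19. Against CAST/EiJ 34 of 35 were higher, where 35.7% of all genes were, with a median of 2.32. Only Cd163 did not pass, at 1.01 ± 0.48 (SE, adjusted p = 0.0595). Ms4a7, nearly undetected in CAST/EiJ, had the largest difference, 6.69 ± 0.41.

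Averaged over the strains, the sexes on 10% fat differed in 1 of 35 members, Lyz2 at 1.42 ± 0.33 (SE, adjusted p = 0.0296) higher in males, where 0.246% of all genes were called higher. The direction was higher in males for 33 members, and 25 had an unadjusted p under 0.05, a share not given here for all genes. The strains were not alike. In C57BL/6J the summed level of the members on 10% fat averaged 242 CPM in females and 209 CPM in males. In NZO/HlLtJ it averaged 182 CPM in females and 429 CPM in males. CAST/EiJ averaged 218 and 333 CPM, with medians of 224 CPM in females and 218 CPM in males. The Lyz2 difference was 0.45 ± 0.20 (SE, adjusted p = 0.38) without replicate 3 of the CAST/EiJ males. No member was called there, nor without replicate 1 of the C57BL/6J males, replicate 1 or 3 of the CAST/EiJ females, replicate 4 of the NZO/HlLtJ females or replicate 3 of the NZO/HlLtJ males. Limma-trend, limma on the deposited values and the code series as a factor also called 0, and DESeq2 called 4. Within NZO/HlLtJ, a comparison added after the group values had been seen, 24 of 35 members were higher in males on 10% fat, against 2.84% of all genes, with a median log2 difference of 1.43. The call rests on 1 library. Csf1r was at 10.1, 18.1 and 24.5 CPM in these males, and without the highest, replicate 3, 1 member (C1qb) was called. Without replicate 2 of the females 15 were called, with library totals alone 8, and with the NZO/HlLtJ libraries fitted alone 0. Every male library exceeded every female library for 23 members, against 7.81% of all genes. Replicate 3 also held fibroblast markers at 1161 CPM, against 239 and 506 CPM in the other 2, and their part in the difference was not tested. On 44% fat 35 of 35 members were higher in NZO/HlLtJ males than females, against 15.9% of all genes, with a median of 2.02 (4.05-fold). Every male library exceeded every female library there for 35 members, against 18.4% of all genes. On either diet only code series 76 held both sexes of NZO/HlLtJ, so that sex was partly confounded with the code series.

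To describe how members moved relative to one another, libraries were rescaled to the geometric mean count of 5 general macrophage genes (Csf1r, Adgre1, C1qa, C1qb and C1qc), which leaves 30 members to describe. On this scale the median diet effect in NZO/HlLtJ was 0.09, with 23 of 30 members within 0.5 of 0 on the log2 scale, beside a median of -1.81 over all genes. No member was called higher in edgeR, and the 3 with an unadjusted p under 0.05 were the 3 called lower. These were Fcer1g at -1.07 ± 0.19 (SE, adjusted p = 5.47e-07), Mertk at -1.01 ± 0.21 (SE, adjusted p = 1.77e-05) and Axl at -0.92 ± 0.15 (SE, adjusted p = 2.71e-07). Of all genes 85.7% were called lower on this scale, as a reference that rose must give, and nothing is read from the members' count against that share. Clec10a at 1.09 ± 0.59 (SE, adjusted p = 0.0824), Siglec1 at 0.90 ± 0.54 (SE, adjusted p = 0.12), Mrc1 at 0.71 ± 0.43 (SE, adjusted p = 0.116) and Lyz2 at 0.66 ± 0.35 (SE, adjusted p = 0.0774) were above the reference without passing. A second reference of Cd68, Aif1, Mpeg1, Tyrobp and Laptm5 also gave 3 lower members.

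The same rescaling was applied between strains on 10% fat. The reference genes did not move together there, so that the counts depend on their choice. In CAST/EiJ against C57BL/6J, Adgre1 was at -1.65 ± 0.16, C1qa at 0.88 ± 0.16 and Csf1r at 0.77 ± 0.15 on this scale. C1qb was at -0.13 ± 0.13 and C1qc at 0.21 ± 0.13 (log2 ± SE). In NZO/HlLtJ against C57BL/6J, C1qa was at 0.42 ± 0.16 and Adgre1 at -0.33 ± 0.15. NZO/HlLtJ had 9 of 30 higher than C57BL/6J, against 17.2% of all genes, with a median of 0.46. The count called lower was 0, and the share of all genes called lower is not given here. The largest were Siglec1 at 2.2 ± 0.56, Clec7a at 1.62 ± 0.24 and Ccr2 at 1.34 ± 0.27, and the smallest Fcgr1 at 0.78 ± 0.24, Cd14 at 0.67 ± 0.24 and Aif1 at 0.61 ± 0.22 (log2 ± SE). The second reference gave 5. CAST/EiJ had 8 higher (23.5% of all genes) and 3 lower (10.9%). The lower ones were Ms4a7 at -6.12 ± 0.46, Itgax at -1.28 ± 0.17 and Ctss at -0.57 ± 0.14, and the largest higher ones Siglec1 at 3.48 ± 0.58, Gpnmb at 1.75 ± 0.37 and Lyz2 at 1.39 ± 0.34, the 3 genes that stood apart in replicate 3 of the CAST/EiJ males.

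**Figure D4:**
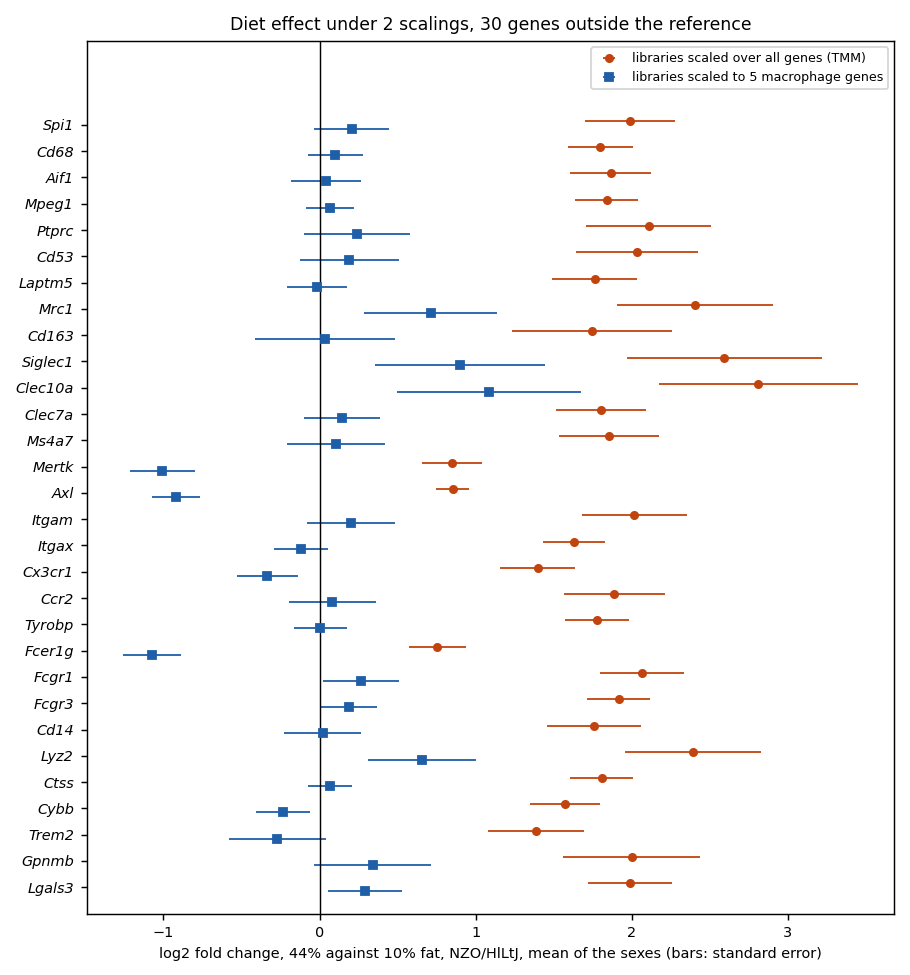
Log2 fold change of 44% against 10% fat in NZO/HlLtJ for the 30 members outside the reference, with TMM scaling and with scaling to the 5 reference genes; bars are SE. Values lie between 0.76 and 2.81 with TMM and mostly within 0.5 of 0 after rescaling, with Fcer1g, Mertk and Axl lowest.

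Other genes of the same pathways were taken from lists, which were also chosen with earlier results of these data known. Counts are for the mean over the sexes unless a sex is named. Of all genes 17.3% were called higher in that comparison, 8.33% in females alone and 14.9% in males alone. Of the growth factors and their receptors 4 of 6 tested rose in NZO/HlLtJ on 44% fat and none fell (median log2 fold change 0.73). In females alone 2 of these 6 were higher, and in males alone 4. Il34 at 1.10 ± 0.17 and Csf1 at 0.84 ± 0.16 encode the ligands of CSF1R, Csf2rb at 1.98 ± 0.46 the shared receptor chain for GM-CSF, IL3 and IL5, and Tgfb1 at 0.63 ± 0.13 a cytokine of resident macrophages (log2 fold change ± SE). Ligands of chemokine receptors rose in 4 of 5 cases (median log2 fold change 2.52), with Ccl8 at 3.26 ± 0.80 (SE, adjusted p = 0.00187). The CCR2 ligands were Ccl12 at 2.88 ± 0.76 (SE, adjusted p = 0.0036), Ccl7 at 2.52 ± 0.69 (SE, adjusted p = 0.00461) and Ccl2 at 1.81 ± 0.49 (SE, adjusted p = 0.0037). In males alone 1 of these 5 was called, and in females 4 were higher and Cx3cl1, the ligand of CX3CR1, was lower at -0.85 ± 0.18. Partners of the clearance receptors rose in 4 of 6 cases (median log2 fold change 0.71). In females alone 0 of these 6 were called, and in males alone 4 were higher. Gas6 at 1.15 ± 0.26 and Pros1 at 0.84 ± 0.13 are the bridging ligands of Axl and Mertk, Tyro3 at 0.69 ± 0.24 is their sister receptor, and Mfge8 at 0.73 ± 0.17 bridges dying cells to integrins. Sirpa, the receptor for the CD47 signal that restrains phagocytosis, fell by 0.25 on the log2 scale.

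Signalling genes downstream of TYROBP and Fc receptors rose in 7 of 9 cases (median log2 fold change 1.38), led by Lcp2 at 2.34 ± 0.36, Btk at 2.03 ± 0.40, Vav1 at 1.91 ± 0.34 and Syk at 1.71 ± 0.36. Further lipid-associated genes rose in 9 of 13 cases (median log2 fold change 0.72). The largest were osteopontin Spp1 at 1.96 ± 0.30, the fatty acid receptor Cd36 at 1.63 ± 0.35, Apoe at 1.33 ± 0.17 and the fatty acid carrier Fabp5 at 1.02 ± 0.31. Proinflammatory activation genes rose in 5 of 9 cases (median log2 fold change 1.31), with the interleukin chain Il12b at 3.21 ± 0.89, the costimulatory ligands Cd80 at 2.78 ± 0.76 and Cd86 at 1.91 ± 0.42 and the inflammasome sensor Nlrp3 at 1.31 ± 0.40. Alternative activation genes rose in 3 of 4 cases (median log2 fold change 1.06), Mgl2 at 2.06 ± 0.52, Cd209a at 1.47 ± 0.57 and Il4ra at 0.65 ± 0.12. In females alone 0 of these 4 were higher and 1 was lower, and in males alone 2 were higher. Macrophage transcription factors rose in 5 of 8 cases (median log2 fold change 1.10), with Tfec at 3.31 ± 0.80, Irf5 at 1.79 ± 0.22, Irf8 at 1.68 ± 0.30 and Maf at 1.63 ± 0.29 the largest. In females alone 3 of the 9 signalling genes were higher, and 5 of the 13 lipid-associated genes were higher and 1 lower. Of the 9 proinflammatory genes 4 were higher there, and of the 8 transcription factors 3. In males alone the higher counts were 7, 9, 4 and 4 in the same order. Many of the listed genes are also made by endothelial, stromal or lymphoid cells.

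Many markers of other cells also rose as a mean over the sexes. On the diet in NZO/HlLtJ, T and NK cell markers rose in 6 of 10 cases, B and plasma cell markers in 6 of 7, dendritic cell markers in 6 of 8, neutrophil markers in 4 of 5, fibroblast and stellate markers in 6 of 6, endothelial markers in 4 of 6 and duct markers in 4 of 6. Of all genes 17.3% were called higher there. In females alone 2 T and NK, 0 B and plasma, 2 dendritic and 1 neutrophil marker were called higher, against 8.33% of all genes. In males alone the counts were 2, 5, 6 and 2 in that order, against 14.9% of all genes. Summed fibroblast markers were at 262 to 414 CPM in females on 10% fat, 502 to 958 on 44% fat, 239 to 1161 in males on 10% fat and 1537 to 3332 on 44% fat. B and plasma cell markers were at 2.38 to 4.64, 4.84 to 25.1, 4.54 to 13.1 and 50.1 to 200.4 CPM in the same order, and T and NK cell markers at 1.43 to 2.51, 1.87 to 16.9, 3.66 to 7.92 and 20.02 to 47.6 CPM. Neutrophil markers ranged over 0.334 to 10.9 CPM. Acinar markers were at 11898 to 59406, 25763 to 68897, 29078 to 41090 and 53149 to 115996 CPM in that order, and with an acinar score as a covariate 35 members were called. Endocrine markers fell in 5 of 9 cases as a mean over the sexes, and the share of all genes called lower with TMM is not given here. With RLE size factors (another scaling) in place of TMM, 2854 of 20306 genes were called lower. The endocrine sum in males ranged over 140671 to 180679 CPM on 10% fat and 66917 to 113258 CPM on 44% fat. In females, where 1 endocrine marker was higher and 1 lower, the sum ranged over 125329 to 157542 and 141596 to 187866 CPM. The part of these cells in the rise of the macrophage genes was not tested.

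**Figure D5:**
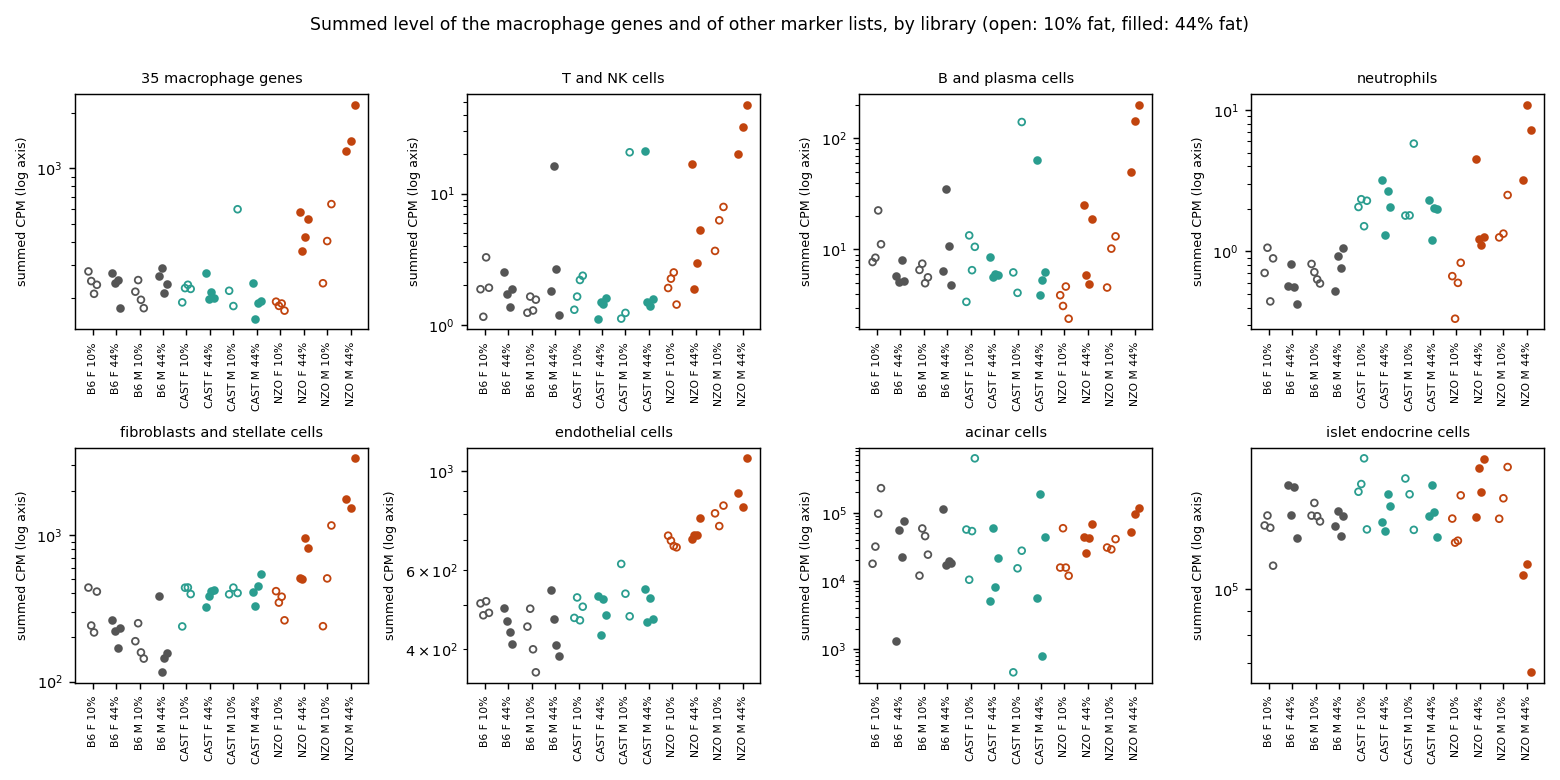
Summed CPM of the 35 macrophage genes and of 7 marker lists of other cells in every library, by group, on log axes; each point is 1 library. In NZO/HlLtJ males on 44% fat the macrophage sum lies between 1243 and 2211 CPM, and B and plasma cell and fibroblast markers are high in the same 3 libraries.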

How the data were processed

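Poly(A) RNA of islets was made into libraries with the KAPA mRNA HyperPrep kit and read as 150 bp pairs on a NovaSeq (aim 100 M pairs), per the labels' protocols. The authors deposited 2 matrices, one with estimated counts per gene, of which 23.6% are not whole numbers, and one with log2 values after a variance-stabilising transformation. GRCm38 and DESeq2 are named in the submitters' processing notes. For the read aligner, the counter and any handling of strain variants or strand, details were not given in the sources used here, which bears on strain differences and overlapping genes. Every column of these matrices belongs to a sample, and gene coordinates came from the deposited annotation.

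Estimated counts were rounded, and edgeR 4.0.16 in R 4.3.3 (TMM, default expression filter over the 12 groups, robust quasi-likelihood F test) was fitted to all 45 libraries in 1 model. The filter left 20306 of 22904 genes. Calls are at an adjusted p under 0.05, with Benjamini-Hochberg adjustment over all genes in each comparison. SE is the absolute log2 fold change divided by the square root of F. The 20 comparisons were diet within strain and sex, differences of diet effects, strain differences on each diet and sex differences, 2 of them (sex within NZO/HlLtJ) added after values were seen. Alternatives used DESeq2 1.42.0, limma 3.58.1, other scalings, other filters, covariates and fewer libraries. The procedure was tested on simulated data. The members and lists were chosen with earlier results of these data known. The rule for naming genes was the 3 largest and 3 smallest called changes, and members not called where 10 or fewer. Of a companion list it was at most 4 called genes in each direction. Fewer genes were named for NZO/HlLtJ against CAST/EiJ on each diet and for sex within NZO/HlLtJ. Values of every library are given for preselected members of each role group. Genes in a list without a row in the matrix (Chil3, Retnla, Il10 and the adipocyte markers among them) were not analysed here.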

Additional observations from a re-analysis of the deposited data

Results flagged for a closer look

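Within groups of 4 libraries, 18 of 315 gene and group pairs (5.71%) held a library far from the other 3 by Dixon's criterion, where chance gives about 5%. Groups of 3 were not tested. Replicate 2 of the C57BL/6J males on 44% fat was high in Ptprc at 22.9 CPM (others 7.0 to 7.32), Cd53 at 4.70 CPM (others 0.960 to 1.30) and Lyz2 at 36.0 CPM (others 13.4 to 16.7). Its T and NK cell markers summed to 16.1 CPM and its B and plasma cell markers to 34.8 CPM. Replicate 1 of the CAST/EiJ males on 44% fat was high in Ptprc at 18.8 CPM (others 3.24 to 4.74), Cd53 at 4.29 CPM (others 0.629 to 1.09), Spi1 at 2.29 CPM (others 0.700 to 0.844) and Trem2 at 0.225 CPM (others 0.196 to 0.200). T and NK cell markers summed to 21.3 CPM and B and plasma cell markers to 63.7 CPM there. Lymphocytes also make Ptprc and Cd53, and their part in these values was not tested.

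Replicate 4 of the C57BL/6J females on 44% fat was low in Aif1 at 0.754 CPM (others 1.33 to 1.42), Laptm5 at 6.91 CPM (others 10.9 to 11.5), C1qb at 6.72 CPM (others 10.6 to 11.1) and Cybb at 8.0 CPM (others 12.2 to 12.4). Replicate 1 of the CAST/EiJ females on 44% fat, 1 of the 5 libraries with transcripts of another strain, was high in Mpeg1 at 24.8 CPM (others 14 to 15.2) and Ccr2 at 2.28 CPM (others 0.621 to 0.887). Replicate 1 of the C57BL/6J males on 44% fat was high in Cd14 at 4.52 CPM (others 1.17 to 1.66) and Lgals3 at 2.13 CPM (others 1.36 to 1.49). On 10% fat, C57BL/6J male replicate 1 was high in Itgam at 1.01 CPM (others 0.617 to 0.669) and replicate 2 in Lgals3 at 1.37 CPM (others 0.951 to 0.976). Cd163 was high in replicate 3 of the NZO/HlLtJ females on 10% fat at 1.28 CPM (others 0.292 to 0.381).

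The diet effect differed between strains by the interaction test for 32 members (NZO/HlLtJ against C57BL/6J) and 33 members (against CAST/EiJ), as the report gives in full.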

How the results depend on the processing

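The 35 members called higher in NZO/HlLtJ on 44% fat numbered 35 under every alternative run except code series 76 alone (3), and 35 to 35 with single libraries left out. Of 875 values for single members in that comparison, 32 no longer passed, all 32 in series 76 alone, and 0 reversed. Library totals alone gave 17 in the females, 5 higher in CAST/EiJ against C57BL/6J on 10% fat and 8 for sex in NZO/HlLtJ on 10% fat, and shifted the median of all genes by -0.13 in NZO/HlLtJ and -0.21 in its females. DESeq2 gave 1 member for diet in CAST/EiJ, 1 in its females, 2 in its males and 4 for sex over the strains. Limma on the deposited values gave 6 for the sex difference of the diet effect. For sex over the strains the code series as a factor, limma-trend, limma on the deposited values and leaving out the 5 libraries with another strain's transcripts each gave 0, and NZO/HlLtJ libraries fitted alone gave 0 for sex in that strain on 10% fat. The second reference gave 5 higher in NZO/HlLtJ against C57BL/6J. The cause of these changes was not tested.

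With single libraries left out, counts ran from 24 to 30 for diet in NZO/HlLtJ females, 30 to 35 in the males, 0 to 0 in C57BL/6J and its sexes, 0 to 0 in CAST/EiJ and its females and 0 to 2 in its males. Differences of the diet effect gave 28 to 34 (C57BL/6J), 32 to 33 (CAST/EiJ) and 0 to 2 (sex). On 10% fat NZO/HlLtJ gave 5 to 11 higher against C57BL/6J, and 9 to 18 higher and 0 to 5 lower against CAST/EiJ. CAST/EiJ gave 3 to 8 higher and 4 to 8 lower against C57BL/6J. On 44% fat the counts were 35 to 35 and 34 to 35. Sex gave 0 to 9 over the strains, and 1 to 31 and 31 to 35 in NZO/HlLtJ on 10% and 44% fat. Per macrophage reference the ranges were 3 to 3 lower for diet, 7 to 10 higher in NZO/HlLtJ, and 6 to 9 higher and 3 to 5 lower in CAST/EiJ. No paired analysis was possible because replicate numbers follow accession order and the labels pair no libraries.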

Other observations

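Genes of macrophages that lie along vessels and serosal surfaces gave a mixed picture in NZO/HlLtJ on 44% fat, with 5 of 7 tested genes higher and 1 lower in edgeR. Of all genes 17.3% were called higher. In females alone 2 of the 7 were higher and 1 lower, and in males alone 4 and 1. The folate receptor Folr2 rose by 2.51 ± 0.56, the carbonyl reductase Cbr2 by 2.01 ± 0.61, the lectin Cd209f by 1.91 ± 0.72, the platelet factor Pf4 by 1.79 ± 0.42 and the transglutaminase F13a1 by 1.15 ± 0.25 on the log2 scale (± SE). Lyve1, the hyaluronan receptor that lymphatic endothelium also makes, fell by 1.01 ± 0.21 (adjusted p = 0.000288). Nr1h3, the oxysterol receptor LXR alpha, rose by 0.57 ± 0.17.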
